A study of Homo sapiens with 6 samples.

Results

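Genes of sterol and fatty acid synthesis were compared between low-attachment (3D) and attached (2D) cultures of SKOV3, an established human ovarian cancer cell line. The genes were taken from a list of 35, of which 21 belong to a sterol branch around SREBF2 and 14 to a fatty acid branch around SREBF1. The array annotation used here names 28 of them among 14884 genes, 17 of the sterol branch and 11 of the fatty acid branch. FDFT1, LSS, CYP51A1, SC5D, ACSL3, ME1 and GPAM were not analysed here. Where a gene has several probe sets the brightest on average was taken, and values are log2 levels after RMA, the authors' background correction, quantile normalization and probe set summary.

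All cells grew for 11 days in McCoy's 5A medium with 15% serum. The 3D cells (n = 3) were kept in low-attachment 96-well plates with FP001 at 0.015% (w/v), an additive that the labels give by code alone. The 2D cells (n = 3) were kept in normal attachment plates, and the water vehicle took the place of the additive. Plate and additive changed together and cannot be told apart. Each group is the same cell line on 1 array per sample, the design text speaks of 3 collections of each sample, and the labels do not say whether these were separate cultures, so the p-values cover the variation among these 3 samples, possibly only technical.

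Cells make cholesterol from acetyl-CoA through the mevalonate pathway, squalene and a chain of sterol intermediates, and they make fatty acids from acetyl-CoA through malonyl-CoA. Both routes are under the sterol regulatory element-binding proteins, membrane-bound transcription factors encoded by SREBF1 and SREBF2 that are held in the endoplasmic reticulum by INSIG proteins while sterols are plentiful. SREBF2 acts mainly on sterol genes and SREBF1 mainly on fatty acid genes, together with the co-factors NF-Y, which binds CCAAT boxes, and Sp1, which binds GC boxes. Ovarian cancer cells are known for active lipid synthesis.

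The promoters of the sterol genes are shown because the results turn on genes of that branch. The stretches are the 170 bases before the RefSeq start site of NSDHL, DHCR7 and SREBF2, the 3 genes that rose in 3D, and of EBP and INSIG2, chosen after their values were seen as the largest positive difference of the list and its most negative one. They are printed from 5′ to 3′ in the direction of the gene, from RefSeq on GRCh38.p14. Capitals mark CCAAT or its complement ATTGG, and in SREBF2 also a match to the sterol regulatory element TCACNCCAC. DHCR7 and INSIG2 have 2 listed promoters each, and only 1 of each is printed. For DHCR7 the printed promoter is the one that holds its 2 CCAAT matches, and its other listed promoter holds none. The capitals of DHCR7 thus describe 1 of its 2 start sites. For INSIG2 neither listed promoter holds CCAAT. NSDHL lies at chrX:152830893-152831062 (forward strand), DHCR7 at chr11:71448394-71448563 (reverse strand), SREBF2 at chr22:41832935-41833104 (forward strand), EBP at chrX:48521638-48521807 (forward strand) and INSIG2 at chr2:118088301-118088470 (forward strand).
NSDHL: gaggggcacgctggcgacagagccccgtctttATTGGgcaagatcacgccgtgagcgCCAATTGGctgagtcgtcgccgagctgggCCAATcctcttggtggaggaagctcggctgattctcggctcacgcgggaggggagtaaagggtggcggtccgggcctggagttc
DHCR7: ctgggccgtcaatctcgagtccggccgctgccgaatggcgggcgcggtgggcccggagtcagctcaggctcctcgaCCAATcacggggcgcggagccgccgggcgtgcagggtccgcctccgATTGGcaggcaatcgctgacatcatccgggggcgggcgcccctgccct
SREBF2: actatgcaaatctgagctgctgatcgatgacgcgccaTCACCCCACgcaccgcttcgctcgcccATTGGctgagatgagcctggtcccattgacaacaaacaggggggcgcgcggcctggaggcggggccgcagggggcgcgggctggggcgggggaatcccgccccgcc
EBP: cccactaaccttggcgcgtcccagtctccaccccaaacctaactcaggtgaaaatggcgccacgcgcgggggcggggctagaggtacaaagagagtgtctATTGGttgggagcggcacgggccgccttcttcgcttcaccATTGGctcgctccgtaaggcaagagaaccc
INSIG2: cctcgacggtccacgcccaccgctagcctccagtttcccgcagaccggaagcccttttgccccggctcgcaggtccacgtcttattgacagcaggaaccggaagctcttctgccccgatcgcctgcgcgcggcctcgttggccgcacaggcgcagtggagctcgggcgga

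The table of promoters, 250 bases before to 50 bases after each start site, held 16 of the 17 measured sterol genes (all but SQLE) and 10 of the 11 fatty acid genes (all but FASN). Both strands were searched, and a gene counted if any of its listed promoters held the motif. CCAAT was found in 14 of 16 sterol genes (87.5%) and 7 of 10 fatty acid genes (70.0%), beside 39.7% of all 27305 genes in the table and 41.4% of the 10749 measured genes in it. The sterol genes without CCAAT were PMVK and INSIG2. The GC box GGGCGG was found in 15 of 16 sterol genes and 9 of 10 fatty acid genes, beside 66.0% of the measured genes. The E-box CACGTG was found in 1 gene of each branch, INSIG1 and ELOVL5, beside 11.0% of the measured genes. TCACNCCAC was found in SREBF2, 133 bases before the start site, and in 1 of 5 listed promoters of ACSL1, beside 1.44% of the measured genes. Each motif was counted on its own, whether or not it overlapped another, and a match is a description of the window, not of binding.

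On the gene values each array correlated more with the arrays of its own group than with those of the other, but the 3D arrays were not alike. Over all genes 3D array 1 correlated at 0.988 with each of the other 3D arrays, which correlated with each other at 0.995, and 2D arrays correlated with each other at 0.991 to 0.993. Over all 53617 probe sets 3D array 1 correlated at 0.980 with 2D arrays 2 and 3, and at 0.978 and 0.977 with 3D arrays 2 and 3. Results that rest on this array are given with and without it. The epithelial markers measured in both groups included PAX8, a Müllerian lineage factor, at 10.15 to 10.44 in 3D and 10.13 to 10.25 in 2D, whereas ERBB2 and MUC16 were not analysed here. Of the 7 measured epithelial markers KRT19 and EPCAM rose and KRT7 fell in 3D, beside 5.23% of all genes called higher and 4.77% called lower.

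Of the 17 sterol genes 3 rose in 3D, 0 fell and 14 did not pass (limma, Benjamini-Hochberg adjusted p under 0.05 over all genes). That is 17.6% higher, beside the 5.23% of all genes. At an unadjusted p under 0.05 there were 10 sterol genes higher and 1 lower, beside 1716 higher and 1777 lower of all 14884 genes. The median change of the branch was 0.41 (3D minus 2D, log2), against -0.01 over all genes. A positive difference was found for 15 of 17 genes (88.2%, beside 48.7% of all genes). The 3 calls were SREBF2, NSDHL and DHCR7. All 3 were lost without 3D array 2, 3D array 3, 2D array 2 or 2D array 3. In those fits 0 sterol genes passed, beside 2.82% to 3.46% of all genes called higher. At an unadjusted p under 0.05 (limma) 6 to 7 sterol genes were higher there. All 3 calls held without 2D array 1, beside 3.22% of all genes called higher. Without 3D array 1 there were 8 sterol genes higher, the same 3 and 5 others, beside 7.36% of all genes.

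SREBF2, which encodes the transcription factor of the branch, had levels of 8.04, 8.26 and 8.34 in 3D arrays 1 to 3, against 7.74, 7.65 and 7.31 in 2D arrays 1 to 3. The groups did not overlap, and 3D array 1 was the lowest of the 3D arrays. The means were 8.21 ± 0.15 in 3D and 7.56 ± 0.23 in 2D (SD, n = 3 each), a change of 0.65 ± 0.14 (SE), or 1.57-fold (adjusted p = 0.0284, up to 0.108 with 1 array left out). NSDHL, a sterol dehydrogenase that works in the removal of methyl groups from the sterol ring, had 8.81, 8.92 and 8.95 in 3D arrays 1 to 3, against 8.45, 8.40 and 8.29 in 2D arrays 1 to 3. Its arrays lay close together within each group and apart between groups. NSDHL averaged 8.89 ± 0.07 in 3D and 8.38 ± 0.08 in 2D (SD, n = 3 each), a change of 0.52 ± 0.10 (SE, 1.43-fold, adjusted p = 0.0144, up to 0.0684 with 1 array left out).

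DHCR7 encodes a reductase of the last step of cholesterol synthesis. Its levels were 8.05, 8.51 and 8.37 in 3D arrays 1 to 3, against 7.82, 7.62 and 7.15 in 2D arrays 1 to 3. The groups did not overlap, 2D array 3 was the lowest of all, and the gap between 3D array 1 and 2D array 1 was smaller than the range within either group. DHCR7 averaged 8.31 ± 0.23 in 3D and 7.53 ± 0.34 in 2D (SD, n = 3 each), a change of 0.78 ± 0.19 (SE, 1.72-fold, adjusted p = 0.0435, up to 0.146 with 1 array left out). With the arrays centred on their medians DHCR7 did not pass, and SREBF2 and NSDHL did.

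**Figure D1:**
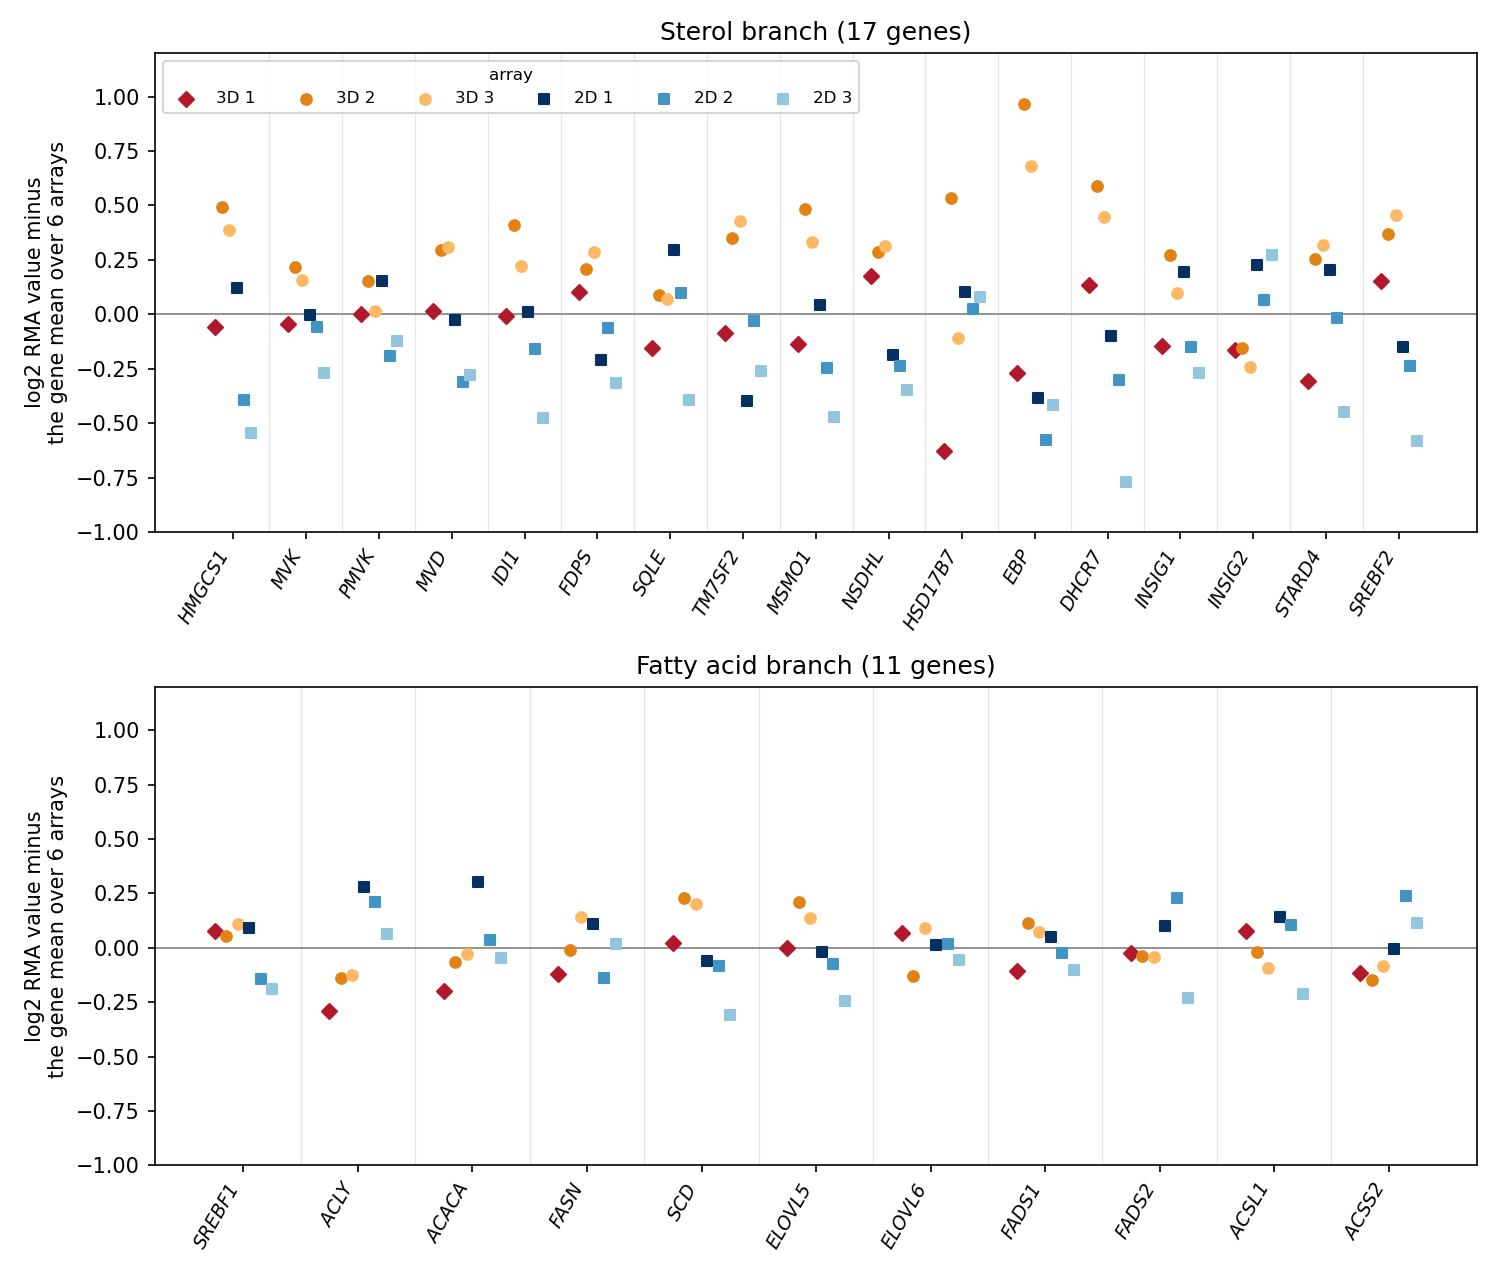
Log2 value of each measured sterol gene (top) and fatty acid gene (bottom) minus that gene's mean over the 6 arrays, with 1 point per array, 3D arrays left of 2D arrays. In the top panel 3D arrays 2 and 3 lie above the gene mean for 16 and 15 of 17 genes and 3D array 1 for 5. In the bottom panel the groups are apart for 4 of 11 genes, with 3D above for 2 and below for 2, beside 13.8% and 15.3% of all genes.

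The mevalonate and isoprenoid steps were measured for 6 genes, and none passed with all arrays (limma), beside 10% of all genes called. At an unadjusted p under 0.05 (limma) there were 4 higher, beside 1716 of all 14884 genes. All 6 differences were positive, with a median of 0.40. HMGCS1, the synthase that makes HMG-CoA, had 7.86, 8.41 and 8.30 in 3D, against 8.04, 7.52 and 7.37 in 2D. Only 3D arrays 2 and 3 lay above all 2D arrays, and the difference was 0.55 ± 0.21 (SE, adjusted p = 0.162). MVD, mevalonate diphosphate decarboxylase, had 7.34, 7.61 and 7.63 in 3D, against 7.29, 7.01 and 7.04 in 2D, with groups that did not overlap (0.41 ± 0.13, adjusted p = 0.089). FDPS, farnesyl diphosphate synthase, likewise had groups apart, at 5.85, 5.95 and 6.03 in 3D, against 5.53, 5.68 and 5.43 in 2D (0.40 ± 0.11, adjusted p = 0.0567). On its dimmer second probe set the groups of FDPS overlapped, with a difference of 0.32 ± 0.20 (SE). The isomerase gene IDI1 gave 0.42, the mevalonate kinase gene MVK 0.22 and the phosphomevalonate kinase gene PMVK 0.11, all with overlapping groups.

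The steps from squalene to cholesterol were measured for 7 genes, of which NSDHL and DHCR7 rose (28.6%, beside 5.23% of all genes). EBP, the sterol isomerase named for its binding of emopamil, had the largest difference of the list. Its levels were 5.31, 6.55 and 6.26 in 3D arrays 1 to 3, against 5.20, 5.00 and 5.16 in 2D arrays 1 to 3. All 3D arrays lay above all 2D arrays, but 3D array 1 was closer to the 2D arrays than to the other 3D arrays. The difference was 0.92 ± 0.29 (SE, adjusted p = 0.0952) with all arrays and 1.28 ± 0.12 (adjusted p = 0.00152, limma) without 3D array 1. MSMO1, the oxidase that acts before NSDHL, had 9.38, 10.002 and 9.85 in 3D, against 9.56, 9.27 and 9.04 in 2D, so that 3D array 1 lay below 2D array 1 (0.45 ± 0.19, adjusted p = 0.207). TM7SF2, a sterol reductase, gave 0.46 ± 0.16 (adjusted p = 0.131), with 3D array 1 between the 2D arrays.

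SQLE, the epoxidase that is a rate-limiting step of the late pathway, did not share this pattern. It had 8.20, 8.45 and 8.43 in 3D, against 8.65, 8.45 and 7.96 in 2D, with the highest level on 2D array 1 and the lowest on 2D array 3. Its difference was 0.00 ± 0.18 (SE), with a 95% interval of -0.42 to 0.42. HSD17B7, a keto reductase of the pathway, was dim, at 2.40, 3.57 and 2.92 in 3D, against 3.13, 3.06 and 3.11 in 2D, near the mean lower quartile of the arrays (2.93). Its difference was -0.14 ± 0.26 with all arrays and 0.14 ± 0.19 without 3D array 1, so its direction rested on that array.

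Among the 4 genes of sterol sensing and transport, SREBF2 alone passed (25%, beside 5.23% of all genes called higher). INSIG2, which encodes an endoplasmic reticulum anchor of the SREBP complex, was the member with the most negative difference and lay at the threshold. It had 7.504, 7.52 and 7.43 in 3D arrays 1 to 3, against 7.90, 7.74 and 7.94 in 2D arrays 1 to 3. All 3D arrays were below all 2D arrays, 3D array 1 included, and the difference was -0.38 ± 0.10 (SE, adjusted p = 0.0505). INSIG2 did pass with dim genes left out, with the mean of all probe sets and with a trended robust variance, but not with any single array left out. Its paralog INSIG1, itself a known SREBP target, had 6.12, 6.54 and 6.37 in 3D, against 6.47, 6.12 and 5.998 in 2D, with overlapping groups (0.15 ± 0.16, adjusted p = 0.657). STARD4, a cytosolic cholesterol carrier, gave 0.18 ± 0.22 (adjusted p = 0.711), and 3D array 1 was below 2D arrays 1 and 2.

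Without 3D array 1 the 5 genes added to the calls were EBP, TM7SF2 (0.62 ± 0.13 SE, adjusted p = 0.0273), MVD (0.51 ± 0.12, 0.037), FDPS (0.44 ± 0.11, 0.0458) and MSMO1 (0.64 ± 0.16, 0.0497). HMGCS1 gave 0.71 ± 0.20 and did not pass (adjusted p = 0.0655). These values come from 2 against 3 arrays.

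**Figure D2:**
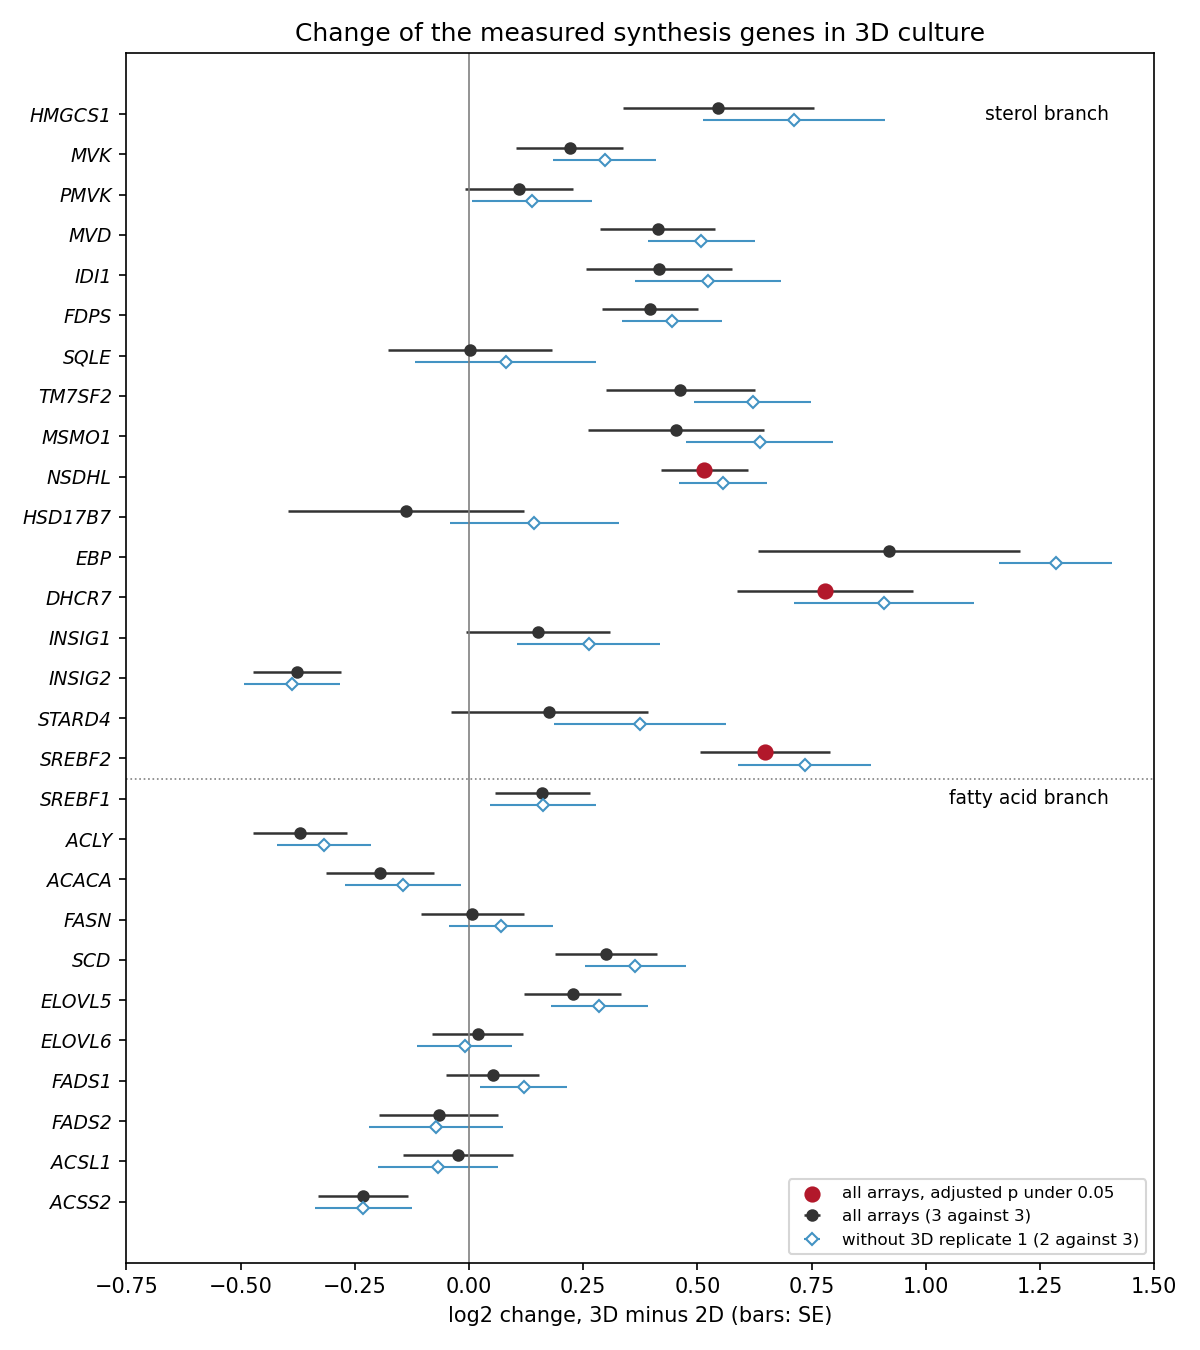
Change of each measured gene, 3D minus 2D on the log2 scale, with SE bars, for all arrays (filled) and without 3D replicate 1 (open); red points passed the test with all arrays. SREBF2, NSDHL and DHCR7 are the red points, and EBP moves the most when 3D replicate 1 is left out (0.92 and 1.28).

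Of the 11 fatty acid genes 0 passed in either direction (limma), beside 10% of all genes called, and 1 was higher and 2 were lower at an unadjusted p under 0.05. The median difference was 0.01, against -0.01 over all genes, and 6 of 11 genes had a positive difference. No leave-one-out fit called any of them, beside 2.82% to 7.36% of all genes called higher and 2.34% to 5.40% called lower. At an unadjusted p under 0.05 (limma) 0 to 2 were higher and 1 to 2 lower in those fits. SREBF1, the transcription factor of this branch, had 6.25, 6.23 and 6.28 in 3D arrays 1 to 3, against 6.26, 6.03 and 5.99 in 2D arrays 1 to 3. Its groups overlapped through 2D array 1, and the difference was 0.16 ± 0.10 (SE, adjusted p = 0.428, 95% interval -0.08 to 0.40).

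Both measured genes that supply acetyl-CoA had negative differences that did not pass. ACLY, which makes cytosolic acetyl-CoA from citrate, had 9.98, 10.14 and 10.15 in 3D arrays 1 to 3, against 10.55, 10.48 and 10.34 in 2D arrays 1 to 3. All 3D arrays were below all 2D arrays, with a difference of -0.37 ± 0.10 (SE, adjusted p = 0.0658), and ACLY passed with dim genes left out and with a trended robust variance. ACSS2, which makes acetyl-CoA from acetate, had 7.35, 7.32 and 7.38 in 3D, against 7.46, 7.70 and 7.58 in 2D, again with 3D below (-0.23 ± 0.10, adjusted p = 0.206). ACACA, the carboxylase that makes malonyl-CoA, gave -0.19 ± 0.12 with overlapping groups (adjusted p = 0.396). The fatty acid synthase gene FASN had 7.63, 7.74 and 7.89 in 3D, against 7.86, 7.61 and 7.77 in 2D. The groups of FASN were interleaved, and its difference of 0.01 ± 0.11 had a 95% interval of -0.26 to 0.27.

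Among the elongases and desaturases the higher differences belonged to SCD and ELOVL5. SCD, the stearoyl-CoA desaturase that makes monounsaturated fatty acids, had 8.53, 8.74 and 8.71 in 3D, against 8.45, 8.43 and 8.20 in 2D. The groups were apart, and the difference was 0.30 ± 0.11 (SE, adjusted p = 0.153), whereas the dimmer second probe set of SCD gave -0.08 ± 0.13. ELOVL5, an elongase of polyunsaturated fatty acids, had 8.30, 8.51 and 8.44 in 3D, against 8.28, 8.23 and 8.06 in 2D (0.23 ± 0.11, adjusted p = 0.253), also with groups apart. The elongase gene ELOVL6 gave 0.02, the desaturase genes FADS1 and FADS2 gave 0.05 and -0.07, and the acyl-CoA synthetase gene ACSL1 gave -0.02, all with overlapping groups. Their 95% intervals together ran from -0.37 to 0.29.

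Groups that did not overlap were counted over both branches. In the sterol branch 6 of 17 genes had 3D above and 1 had 3D below, beside 13.8% and 15.3% of all genes (29.2% in either direction). In the fatty acid branch the counts were 2 and 2 of 11. The 6 were MVD, FDPS, NSDHL, EBP, DHCR7 and SREBF2.

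Array by array, the sterol branch was high on 3D arrays 2 and 3 and not on 3D array 1. As the mean over its 17 genes of the log2 level minus the gene mean, the branch stood at -0.08 on 3D array 1, 0.34 on 3D array 2 and 0.25 on 3D array 3. The 2D arrays 1 to 3 stood at -0.01, -0.16 and -0.33. The level of 3D array 1 thus lay between 2D arrays 1 and 2. Of 17 genes 15 were above all 2D arrays on 3D array 2, 12 on 3D array 3 and 6 on 3D array 1, whereas the shares over all genes were 31.1%, 31.8% and 31.9%. The highest of the 6 arrays was 3D array 2 for 9 genes and 3D array 3 for 6, and the lowest was 2D array 3 for 11.

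**Figure D3:**
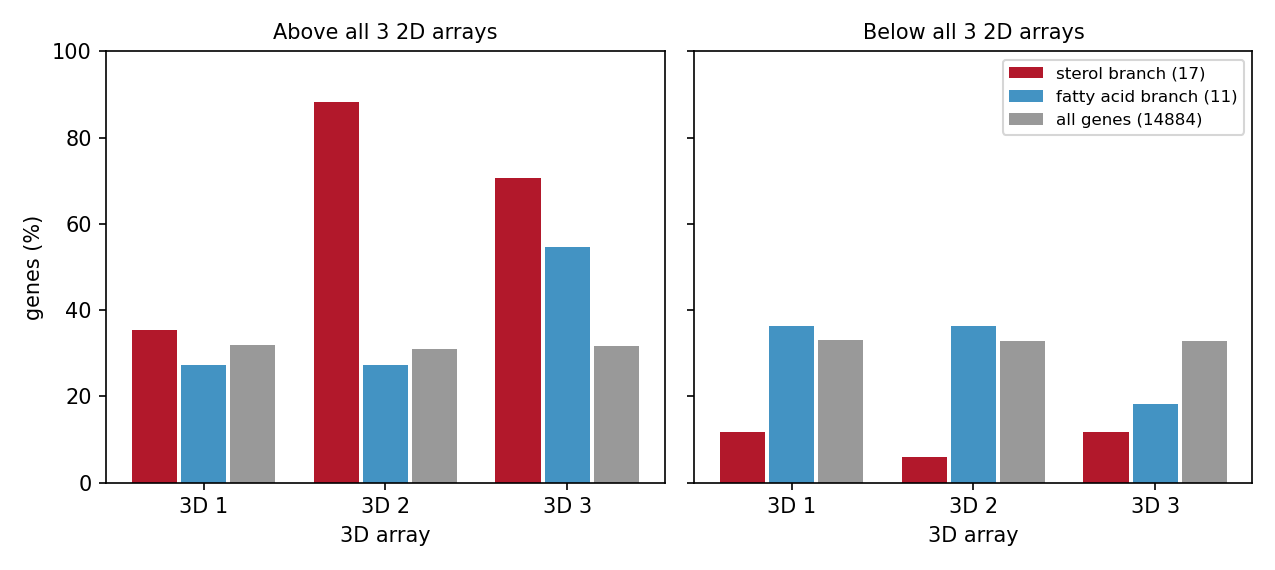
Percent of genes on each 3D array that lay above (left) or below (right) all 3 2D arrays, for the sterol branch, the fatty acid branch and all genes. On 3D arrays 2 and 3 the share of sterol genes above is 88.2% and 70.6%, and on 3D array 1 it is 35.3%, beside 31.9% of all genes.

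The fatty acid branch stood at -0.06, 0.01 and 0.03 on 3D arrays 1 to 3 and at 0.09, 0.03 and -0.11 on 2D arrays 1 to 3, so the groups overlapped. On the fatty acid genes 3 of 11 were above all 2D arrays on 3D arrays 1 and 2 and 6 on 3D array 3. The sterol level minus the fatty acid level was -0.03, 0.34 and 0.21 on 3D arrays 1 to 3, against -0.10, -0.20 and -0.22 on 2D arrays 1 to 3. This difference was higher on every 3D array than on any 2D array, by a narrow margin on 3D array 1, and it is given as a description without a test.

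The arrays were ordered alike by the proliferation genes and by the sterol branch, except that 2D array 1 and 3D array 3 changed places. The mean level of 15 proliferation genes was -0.04, 0.29 and 0.20 on 3D arrays 1 to 3 and 0.21, -0.15 and -0.51 on 2D arrays 1 to 3, which puts 2D array 1 beside 3D arrays 2 and 3. None of the 15 passed (limma), beside 10% of all genes called. At an unadjusted p under 0.05 (limma) there were 4 higher, beside 1716 of all 14884 genes. The median difference was 0.27, and 14 of the 15 differences were positive (93.3%, beside 48.7% of all genes). The groups were apart for 2 of the 15, both with 3D above, beside 13.8% of all genes. RRM2, named after its value was seen, had the largest difference of these genes, 0.87 ± 0.24 (SE, adjusted p = 0.0663, limma). RRM2 passed without 3D array 1, with repeated quantile normalization, with dim genes left out and with a trended robust variance. TOP2A, also named afterwards, passed without 2D array 1. MKI67, a marker of cycling cells, had 9.82, 10.05 and 10.05 in 3D, against 10.51, 9.73 and 9.47 in 2D (0.07 ± 0.25 SE, adjusted p = 0.905). Their part in the sterol result was not tested. In bulk samples a different share of cells and a different amount of RNA per cell cannot be told apart.

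**Figure D4:**
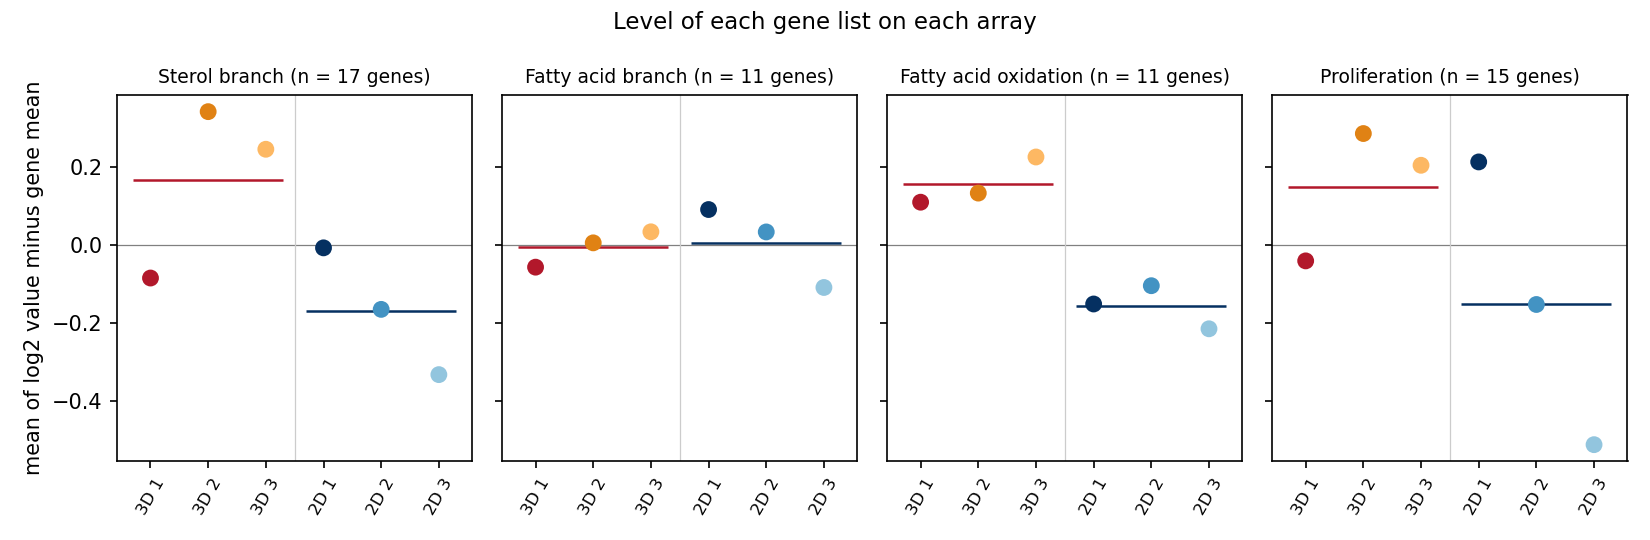
Mean over the genes of each list of the log2 level minus the gene mean, with 1 point per array (3D left of 2D) and a line at each group's mean, for the sterol branch, the fatty acid branch, fatty acid oxidation and proliferation. The sterol and proliferation levels overlap between groups (3D array 1 at -0.08 and -0.04), whereas the oxidation level is 0.11 to 0.23 in 3D and -0.21 to -0.10 in 2D.

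Of 17 other genes of the sterol pathway 8 were measured, and the others were not analysed here. Among the 8, STARD3 rose (12.5%, beside 5.23% of all genes), 0 fell and 7 did not pass, with a median of 0.25. STARD3, a late endosomal sterol transfer protein, had 11.08, 11.22 and 11.27 in 3D, against 10.22, 10.31 and 10.05 in 2D, a change of 0.99 ± 0.11 (SE, adjusted p = 0.00128), and 3D array 1 stood with the other 3D arrays. Without 3D array 1 there were 3 higher (37.5%, beside 7.36% of all genes), STARD3, ERG28 and DHDDS. The list's level was -0.01, 0.23 and 0.24 on 3D arrays 1 to 3 and -0.08, -0.11 and -0.26 on 2D arrays 1 to 3.

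Of 31 other genes of fatty acid synthesis 23 were measured, of which 3 rose and 1 fell, beside 5.23% and 4.77% of all genes, with a median of 0.12. FADS3, of the desaturase family, fell, with 6.70, 6.88 and 6.87 in 3D, against 7.72, 7.69 and 7.72 in 2D (-0.89 ± 0.09 SE, adjusted p = 0.00112). Its arrays were tight within groups and far apart between them. The lipase-family gene PNPLA3 rose by 0.57 ± 0.12, PGD, an NADPH-producing enzyme of the pentose phosphate pathway, by 0.51 ± 0.09, and MLX, a partner of the carbohydrate-responsive factor MLXIPL, by 0.42 ± 0.09. With 1 array left out PNPLA3, PGD and MLX reached adjusted p-values of up to 0.0884, 0.0588 and 0.113, so these calls were not held by every set of arrays.

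The mean level of the fatty acid oxidation genes was higher on every 3D array, 3D array 1 included, than on any 2D array. Of 25 listed genes 11 were measured, of which 5 rose and 0 fell (45.5%, beside 5.23% of all genes), with a median of 0.40. The rise was not shared by the whole list, as 7 of the 11 had a positive difference (63.6%, beside 48.7% of all genes). The groups were apart with 3D above for 6 genes and with 3D below for 1, beside 13.8% and 15.3% of all genes. CPT1A, which carries long-chain fatty acids into mitochondria as the controlled step of their oxidation, had 9.86, 10.06 and 10.16 in 3D, against 9.37, 9.26 and 9.33 in 2D, a change of 0.71 ± 0.11 (SE, adjusted p = 0.00636). ETFDH, which passes electrons from acyl-CoA dehydrogenases to the respiratory chain, had 8.18, 8.41 and 8.33 in 3D, against 7.41, 7.45 and 7.22 in 2D (0.94 ± 0.11, adjusted p = 0.00171). The lowest 3D array was above the highest 2D array by a clear margin in both genes. The isomerase gene ECI1 rose by 0.76 ± 0.09, CPT2, the partner of CPT1A, by 0.56 ± 0.12 and HADH, a dehydrogenase named after its value was seen, by 0.40 ± 0.09. CPT1A, ETFDH and ECI1 passed with any single array left out, CPT2 and HADH only without 3D array 1. The count was thus 5, of the same genes, without 3D array 1, beside 7.36% of all genes called higher. Without any other single array the count was 3, beside 2.82% to 3.46% of all genes called higher. CPT2 did not pass with the mean of its probe sets, and its dimmer second probe set gave 0.18 ± 0.14 (SE). The level of the list was 0.11, 0.13 and 0.23 on 3D arrays 1 to 3 and -0.15, -0.10 and -0.21 on 2D arrays 1 to 3.

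Markers of other cell types were measured in part. None of 4 measured adipocyte and hepatocyte markers passed (limma; 1 was higher at an unadjusted p under 0.05), and ADIPOQ was not analysed here. Both measured leukocyte markers rose, beside 5.23% of all genes called higher. The lysosomal glycoprotein gene CD68 rose by 0.68 ± 0.11 and the lysozyme gene LYZ, which was dim, by 1.83 ± 0.29 (SE). On the dimmer second probe set of LYZ the groups overlapped, with a difference of 0.29 ± 0.16 (SE). PTPRC and CD3E were not analysed here. The mean level of CD68 and LYZ relative to the gene means, on the probe sets used, was 0.28 to 0.95 in 3D and -0.71 to -0.55 in 2D. Of 3 fibroblast and endothelial markers 1 rose (33.3%, beside 5.23% of all genes). This was PECAM1, which rose by 1.27 ± 0.14, with 4.88 to 5.07 in 3D and 3.52 to 3.98 in 2D, while DCN and VWF did not pass. That list's level was 0.15 to 0.37 in 3D and -0.33 to -0.10 in 2D. The part of these markers in the sterol and oxidation results was not tested.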

How the data were processed

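Values were the log2 levels of 53617 probe sets on 6 arrays, deposited by the authors and made with RMA per the submitters' processing notes; the software version is not given in the sources used here. That values are log2 follows from their range. The labels name a 3′ IVT labelling kit, whereas the platform annotation is of a gene-level array, and this was not resolved. Of the probe sets 16098 carry 1 symbol, 0 several and 37519 none; all 16098 symbols were found in RefSeq (GRCh38.p14).

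Groups were compared with limma 3.58.1 in R 4.3.3, group alone, two-sided, adjusted over 14884 genes at 0.05; this fit was tested on simulated data. No array gives detection calls, and the number of arrays limits the precision. RMA compresses the changes of dim genes.

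The members and lists were chosen with earlier results of these data known. All measured members were described; in other lists up to 4 called genes with the largest change were named, plus CPT1A and MKI67 whatever their result; some genes of the lists are not reported here. Alternatives were another normalization, filter, probe set rule, variance model, block or test, and leaving out each array.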

Additional observations from a re-analysis of the deposited data

How the results depend on the processing

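With 1 array left out, the genes higher in 3D numbered 420 to 1096 over all genes, 0 to 8 in the sterol branch and 5 to 15 in the other pathway and proliferation lists, the cell markers not counted; genes lower in 3D numbered 349 to 803 over all genes. The replicate number as a block called 433 genes higher and 327 lower. With this block 0 sterol genes (limma, 7 higher at an unadjusted p under 0.05) and 6 genes of those other lists were called higher. Samples of the same number did not deviate together (correlations of -0.28, -0.06 and -0.18 for numbers 1 to 3), and no sample correlated best with its own number. Deviations from a mean of 3 arrays depend on each other, so these correlations cannot decide whether the numbers pair the samples. Testing each gene alone, with variances unequal between groups and not moderated, called 41 genes higher and 41 lower. That test called 0 genes of the sterol branch (5 higher at an unadjusted p under 0.05). Of those other lists it called 0 higher and 0 lower, whereas at an unadjusted p under 0.05 each list had 1 to 6 genes higher and 0 to 3 lower. Testing all 53617 probe sets singly (limma) called 739 probe sets higher and 545 lower. Of the 18 sterol probe sets 0 were called, with a lowest adjusted p of 0.0684, and 9 were higher at an unadjusted p under 0.05. INSIG2 made 1 sterol gene lower with dim genes left out, with the mean of all probe sets and with a trended robust variance. In those fits 8.14%, 4.76% and 6.41% of all genes were called lower. ACLY made 1 fatty acid gene lower with dim genes left out and with that variance. Sterol genes higher numbered 4 with dim genes left out, FDPS added, beside 8.27% of all genes. They also numbered 4, MVD added, with repeated quantile normalization and with that variance, beside 5.55% and 6.56%. With the arrays centred on their medians they numbered 2, beside 4.93%. Repeated quantile normalization turned the uncalled differences of FASN (-0.0054) and SQLE (-0.00045). With 1 array left out, uncalled differences changed sign for ACSL1 (-0.14 to 0.041), ELOVL6 (-0.022 to 0.088), FADS2 (-0.20 to 0.032), FASN (-0.062 to 0.069), HSD17B7 (-0.44 to 0.14), SQLE (-0.20 to 0.15) and STARD4 (-0.0035 to 0.37). The other alternatives kept the direction of every measured member. HSD17B7 is dim, and its values lie where the array measures least.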

Other observations

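Of 14 sterol efflux and LXR genes 7 were measured, and ABCA1 was not analysed here. Of the 7 measured, 1 rose (14.3%, beside 5.23% of all genes) and 0 fell. LPCAT3, a phospholipid-remodelling enzyme, rose, with 9.48, 9.70 and 9.78 in 3D, against 9.14, 9.31 and 9.14 in 2D (0.45 ± 0.11 SE, adjusted p = 0.0459, up to 0.16 with 1 array left out). The groups did not overlap for 6 of the 7, 3 with 3D above (LPCAT3, OSBP and MYLIP) and 3 with 3D below, beside 13.8% and 15.3% of all genes. Those with 3D below were SOAT1, which esterifies cholesterol for storage, at 8.65, 8.61 and 8.69 in 3D, against 8.90, 8.92 and 8.84 in 2D (-0.23 ± 0.09, adjusted p = 0.153), with NCEH1 (-0.35) and APOE (-0.27). Apart from LPCAT3 these genes did not pass and were named after their values were seen.

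Of 12 fatty acid uptake genes 4 were measured, of which 1 rose (25%, beside 5.23% of all genes) and 0 fell. CD36, a fatty acid translocase, rose by 0.89 ± 0.13 (SE, adjusted p = 0.00468) at dim levels of 3.34, 3.08 and 3.18 in 3D, against 2.17, 2.26 and 2.52 in 2D. LPIN1, a phosphatidate phosphatase and of the other fatty acid synthesis genes, had 6.15, 5.92 and 5.84 in 3D, against 6.23, 6.58 and 6.27 in 2D, with all 3D arrays below (-0.39 ± 0.13, adjusted p = 0.124), and was also named after its values were seen.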
